A study of Rattus norvegicus with 63 samples.

Results

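Passenger-strand miRNAs, written with a star after the name of their hairpin (miR-21*, for example), were taken as every rat miRNA on the array whose name ends in that star. They made up 58 of the 350 rat miRNAs measured. Of these, 18 were detected on at least 1 of 63 liver arrays and were followed across 15 compounds, each beside its guide, the miRNA of the same name without the star.

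A miRNA hairpin is cut by Dicer into a short duplex of 2 strands. The strand loaded into an Argonaute protein is the guide, and the other strand, the passenger, is mostly degraded, so that it is usually the rarer of both. Some hairpins keep both strands, and a retained passenger strand has a seed of its own, the bases near its start that pair with target mRNAs, and hence targets of its own. The names with a star come from an older nomenclature in which the rarer strand carried it, and both strands are now called by their arm, -5p or -3p.

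The livers came from male Wistar Hanover rats, 8 to 10 weeks old at assignment, dosed by gastric gavage in a study that asked which short-term liver profiles separate genotoxic carcinogens, non-genotoxic carcinogens and non-carcinogens. One array was hybridised per rat, with 3 rats in each of 21 groups. By the study's methods, the 3 rats per treatment group were picked from a larger group because histopathology had found some change in their livers. C.I Direct Black (CIDB, 146 mg/kg/day, 7 days) and dimethylnitrosamine (DMN, 4 mg/kg/day, 7 days) were compared with corn oil (CO) set 3, dosed for 7 days. Cyproterone acetate (CPA, 100 mg/kg/day, 14 days) was compared with CO set 4, dosed for 14 days. The methylcellulose (MC) control sets 1, 2, 5 and 6 were all dosed for 14 days. Against MC set 1 stood acetamide (AA, 3000 mg/kg/day), dehydroepiandrosterone (DHEA, 600 mg/kg/day) and methylcarbamate (Mcarb, 400 mg/kg/day) after 14 days, methapyrilene HCl (MPy, 60 mg/kg/day) and thioacetamid (TAA, 19.2 mg/kg/day) after 7 days, and Wy-14643 (Wy, 60 mg/kg/day) after 3 days. Cefuroxime (CFX, 250 mg/kg/day) and nifedipine (Nif, 3 mg/kg/day), both for 14 days, stood against MC set 2. Diethylstilbestrol (DES, 10 mg/kg/day) and piperonylbutoxide (PBO, 1200 mg/kg/day), both for 3 days, and ethionine (ETH, 200 mg/kg/day) for 14 days stood against MC set 5, and phenobarbital sodium (PB, 14 days, at the dose the study's methods name, which the labels do not hold) against MC set 6. For MPy, TAA, Wy, DES and PBO the labelled dosing time thus differed from that of the control set. The study's methods describe its controls as time-matched, and which of these holds was not settled here, so that for these 5 compounds time and compound cannot be told apart if the labels are right. CIDB, DMN and CPA were given in corn oil. For the other compounds the sources differ on the vehicle: the text of the study's methods names carboxymethyl cellulose for the compounds and methylcellulose for the controls, its list of compounds gives methylcellulose for DHEA, AA, MPy, Mcarb, DES and ETH, and the labels name methylcellulose for their control sets. Which of these holds was not settled here.

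The arrays carried the marks of liver. The hepatocyte miRNAs miR-122, miR-192 and miR-194 were each detected on 63 arrays. A liver sample also holds blood, vessel and connective tissue cells, whose markers miR-142-3p, miR-223, miR-451, miR-143 and miR-126 were each detected on 63 arrays, while miR-145 was detected on 0. In such tissue, fewer cells of a type and less of a miRNA per cell cannot be told apart.

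Some arrays stood apart or went against their labels. Between 2 and 15 star miRNAs were detected per array (median 6), and the 3 highest numbers were those of CIDB rat 2 with 15, MC set 1 rat 4 with 14 and MC set 2 rat 11 with 11. The median number was 5 on the 30 arrays of the first scan day, 6 on the 28 of the second and 8 on the 5 of the third. In the deposited value table, 15 of the 63 columns followed the scanner values of an array from another group (Pearson r across 71 miRNAs of 0.842 to 0.964, against -0.05 to 0.675 with the array of the same label). DES and DHEA were exchanged, and the columns of MC sets 1, 5 and 2 followed the scanner arrays of MC sets 5, 2 and 1. Groups are named below as the scanner files are filed, and of the 27 star calls described below, 6 were called the same way under the assignment of the value table, 4 in CIDB, 1 in DMN and 1 in MPy.

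**Figure D1:**
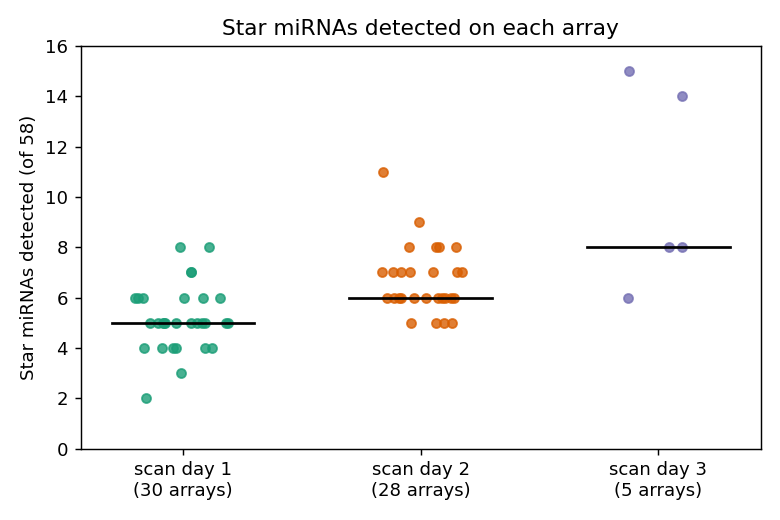
The number of star miRNAs detected (of 58) is plotted for each array by scan day, with a bar at the median. The medians were 5, 6 and 8, and the arrays of CIDB rat 2 (15) and MC set 1 rat 4 (14) stand highest, both on the third scan day.

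The sequences below come from 9 of the hairpins on which the results turn, and both strands are shown for all of these but miR-99a, so that the separate seeds of the strands can be seen. The arms of miR-378 are not shown. They are RefSeq mature miRNAs on rat build GRCr8, matched by the known names of the arms, because the array files name the miRNA of each probe and hold no probe sequence. Of 18 star arms and 18 guide arms looked up, 16 and 17 were matched. The strand with the star is given first, then its guide, 5′ to 3′, with the seed (bases 2 to 8) in capitals.
miR-21* (miR-21-3p, chr10:71902615-71902636, minus strand): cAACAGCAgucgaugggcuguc
miR-21 (miR-21-5p, chr10:71902653-71902674, minus strand): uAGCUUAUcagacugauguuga
miR-193* (miR-193a-5p, chr10:65170336-65170357, plus strand): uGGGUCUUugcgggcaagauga
miR-193 (miR-193a-3p, chr10:65170370-65170391, plus strand): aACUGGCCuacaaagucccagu
miR-29c* (miR-29c-5p, chr13:109099374-109099395, plus strand): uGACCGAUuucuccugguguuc
miR-29c (miR-29c-3p, chr13:109099412-109099433, plus strand): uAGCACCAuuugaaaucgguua
miR-322* (miR-322-3p, chrX:137726162-137726181, minus strand): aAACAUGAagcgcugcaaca
miR-322 (miR-322-5p, chrX:137726198-137726219, minus strand): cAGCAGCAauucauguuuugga
miR-99a* (miR-99a-3p, chr11:29687441-29687462, plus strand): cAAGCUCGuuucuaugggucug
miR-126* (miR-126a-5p, chr3:29813182-29813202, plus strand): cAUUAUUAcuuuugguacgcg
miR-126 (miR-126a-3p, chr3:29813219-29813240, plus strand): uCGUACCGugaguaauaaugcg
miR-140* (miR-140-3p, chr19:52375353-52375373, plus strand): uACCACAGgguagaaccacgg
miR-140 (miR-140-5p, chr19:52375314-52375335, plus strand): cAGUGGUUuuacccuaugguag
miR-30a* (miR-30a-3p, chr9:33233987-33234008, plus strand): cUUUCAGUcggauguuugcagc
miR-30a (miR-30a-5p, chr9:33233946-33233967, plus strand): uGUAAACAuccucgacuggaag
miR-7a* (miR-7a-1-3p, chr17:6278751-6278772, plus strand): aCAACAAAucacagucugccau
miR-7a (miR-7a-5p, chr17:6278710-6278732, plus strand): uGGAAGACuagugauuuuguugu

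No strand shared its seed with its partner. Of the 16 matched star arms, 3 began with U, against 10 of the 17 matched guide arms and 36.2% of the 693 mature miRNA names in the table. Argonaute proteins are known to favour a 5′ U. The star lay on the 5p side of the hairpin in 8 of 18 pairs and on the 3p side in 10, so the names with a star mark no fixed arm. Among guides the miR-30 family shared its seed (miR-30a, miR-30c, miR-30e), as did miR-29a and miR-29c, whereas 0 of the star arms shown or matched shared a seed with one another. Arms of miR-23a*, miR-30e* and the guide miR-99a were not matched.

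Detection is a mark that the scanner software sets for each miRNA on each array. At least 1 mark was set for 18 of 58 star miRNAs (31.0%), 35 of 54 guides (64.8%), 29 of 60 miRNAs named by arm (48.3%) and 162 of all 350 (46.3%). On all 63 arrays, 2 star miRNAs, 30 guides and 71 of all miRNAs were detected. A stricter mark, a probe with most of its spots well above background, was set on at least 1 array for 13 star miRNAs and on all 63 for 0. These marks describe probes, whose brightness also depends on the probe's sequence, so no star level is set against a guide level here.

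Of the star miRNAs, 6 were seen on most arrays. Detected on 63 arrays were miR-140* and miR-30a*, on 62 miR-30e*, on 61 miR-22*, on 49 miR-378* and on 45 miR-126*, the partner of the endothelial miR-126. Well above background were miR-140* on 61 arrays, miR-30a* and miR-30e* on 49 each, miR-22* on 45, miR-126* on 34 and miR-378* on 21. A middle group was detected on 13 arrays (miR-193*) or 10 (miR-7a* and miR-99a*). The other 9 members were detected on 3 arrays (miR-29c* and miR-30c-2*), on 2 (miR-20a*, miR-21*, miR-23a*, miR-24-2*) or on 1 (let-7d*, miR-29a*, miR-322*). The 2 arrays of miR-21* and the 1 of miR-322* and of let-7d* were all CIDB arrays.

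Of the 40 star miRNAs detected on no array, 15 had a guide detected on all 63. These were let-7b*, let-7e*, let-7i*, miR-24-1*, miR-25*, miR-26b*, miR-27a*, miR-28*, miR-29b-1*, miR-29b-2*, miR-30c-1*, miR-30d*, miR-101a*, miR-106b* and miR-151*. For 5 (miR-34c*, miR-99b*, miR-181a*, miR-338*, miR-872*) the guide was detected on some arrays. For 19 the guide was detected on no array, among them miR-1*, miR-9* and miR-124* of hairpins known for muscle and neurons, and for miR-125b* no guide of that name was on the array. The guides of all 18 detected star miRNAs were detected on 63 arrays.

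Detection moved with the scan day over all miRNAs, with a median of 95.5 detected per array on the first day, 114.5 on the second and 119 on the third. Among the 18 star miRNAs the share of arrays with the mark was higher on the third day than on the first for 15, the exceptions being miR-140* and miR-30a*, detected on every array, and miR-23a*. For 9 it rose from the first day to the second and was no lower on the third (miR-22*, miR-29c*, miR-30c-2*, miR-30e*, miR-7a*, miR-99a*, miR-126*, miR-193* and miR-378*), and 5 were detected on the third day alone. All marks of these 5 lay on CIDB rat 2 and MC set 1 rat 4, with 151 and 141 miRNAs detected. The other arrays of that day had 6 to 8 star miRNAs and 110 to 119 miRNAs detected. On the first day miR-126* was detected on 12 of 30 arrays, on the second on 28 of 28 and on the third on 5 of 5. For miR-193* the numbers were 1 of 30, 8 of 28 and 4 of 5, and for miR-378* they were 20 of 30, 24 of 28 and 5 of 5. The median spot brightness per array lay between 193.5 and 243.5 scanner units on the first day, between 140 and 153.5 on the second and between 75 and 78 on the third. The part of brightness in detection was not tested.

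**Figure D2:**
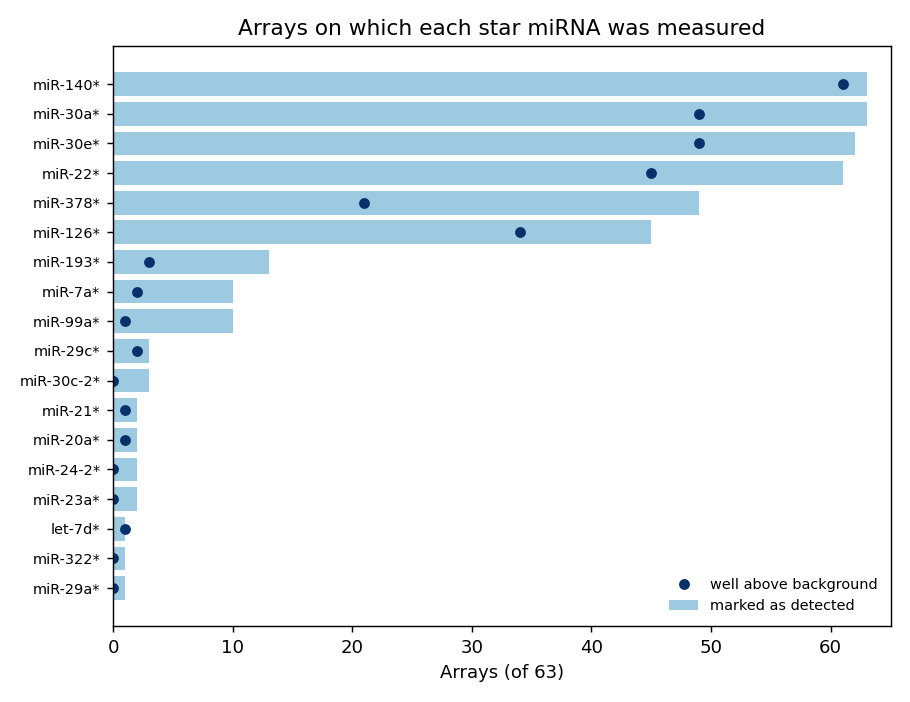
For each of the 18 star miRNAs detected, the bar gives the number of arrays (of 63) with the detection mark and the point the number with a probe well above background. From miR-140* (63 and 61) the numbers fall to miR-322* and miR-29a* (1 and 0).

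Values were first compared as normalised log2 signal, which keeps the background of the array in it (lowest value 7.335). All 18 star miRNAs lay close to that base, from 7.37 (let-7d*) to 7.83 (miR-30a*), and their log2 differences were small. A second scale, the background-subtracted signal of each miRNA's brightest probe, scaled between arrays, was added after the data had been seen. It opens up the dim range, and values under 5.38 units were set to that floor before taking log2. The floor is the 95th percentile of probes of miRNAs never detected, and a value above it need not carry the detection mark. A call means a Benjamini-Hochberg adjusted p under 0.05 in limma over all 162 miRNAs detected on at least 1 array.

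On the normalised scale, 27 of 270 star comparisons (18 miRNAs in 15 compounds) were called, or 10%, against 53 of 270 guide comparisons (19.6%) and 14.3% of all miRNA comparisons. Of the 27, 9 were higher (background 7.57%) and 18 lower (6.71%) under the compound, and 20 were made against MC set 1, or 74.1% of the star calls, where 46.7% of the calls over all miRNAs were made. On the brightest probe 34 were called (12.6%, against 21.8% of all miRNAs), of which 24 were higher (background 16.9%) and 10 lower (4.86%), so that the split turned from 33.3% to 70.6% higher. The split over all miRNAs also turned towards higher, from 184 of 347 calls on the normalised scale to 411 of 529 on the brightest probe. On that scale the median of all 162 miRNAs shifted by more than 0.1 in 9 compounds, from -0.10 in Nif to 0.41 in MPy, and star differences on it between the groups as filed are therefore also given less that median, with each p belonging to the difference before that subtraction. Called in the same direction on both scales were 12 of the 27.

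Calls were found in 8 compounds. They numbered 3 in AA (background 13.6% of all miRNAs called), 4 in CIDB (20.4%), 2 in DES (37%), 5 in DHEA (18.5%), 1 in DMN (23.5%), 3 in MPy (18.5%), 5 in TAA (21.6%) and 4 in Wy (25.9%). The counts were 0 of 18 in CFX, CPA, ETH, Mcarb, Nif, PB and PBO by limma, where the background was 0%, 5.56%, 16%, 1.85%, 0%, 3.09% and 8.64%. At an unadjusted p under 0.05 these 7 compounds had 0, 1, 3, 5, 3, 0 and 3 star miRNAs. On the brightest probe 0, 1, 3, 0, 0, 0 and 1 were called in them, against backgrounds of 0%, 14.8%, 22.2%, 8.02%, 1.23%, 4.32% and 15.4%. The compounds with a normalised call gave 2 in AA (21%), 8 in CIDB (37.7%), 4 in DES (37.7%), 3 in DHEA (27.8%), 0 in DMN (21%), 4 in MPy (53.7%), 5 in TAA (35.8%) and 3 in Wy (25.9%) on that probe. On the normalised scale, 12 of the 18 members were called in at least 1 compound, and let-7d*, miR-20a*, miR-22*, miR-24-2*, miR-29a* and miR-30c-2* in none. On the brightest probe miR-22* was called higher in 3 compounds and miR-20a* in 1, while let-7d*, miR-24-2*, miR-29a* and miR-30c-2* were again called in none.

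In 13 of the 27 calls the miRNA was well above background on at least 1 array of both groups, and in 10 of these on all 6 arrays. In 8 it was so in 1 group alone, where a bound could be set at 1.01 to 1.02-fold in 4 and at none above 1 in the other 4, and in 6 in neither group. The sizes below are log2 differences of signal, not fold changes of RNA.

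CIDB, an azo dye classed as a genotoxic carcinogen, gave 4 calls, and in each the guide was called in the same direction. The partner of the growth-associated miR-21, miR-21*, was among the miRNAs tested only because it was detected on 2 CIDB arrays, so the rise in CIDB is in part what let it in. It had background-subtracted signals of 14.9, 27.1 and 22.7 units in the CIDB rats and of 1.4, 0.2 and 2.7 in CO set 3. All treated rats lay above all controls, which were under the floor of 5.38, so the log2 size on this scale was set by that floor. The normalised log2 signal rose by 0.08 (SE 0.0155, adjusted p = 9.95e-05 in limma) and the brightest probe by 1.96, or 1.69 less the median. Outside CIDB every group mean on that probe was under the floor, which held the spread small. Its p on that scale is therefore not given. Neither call is separate support, since CIDB let the miRNA in. The guide miR-21 read 12.86, 13.29 and 13.16 log2 under CIDB and 12.44, 12.37 and 12.42 in the controls, a rise of 0.70 (adjusted p = 1.11e-08).

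For miR-29c*, of a family whose guides are known to repress collagen mRNAs, the signals were 15.9, 15.1 and 12.8 units under CIDB and 6.9, 3.9 and 5.5 in the controls. The groups did not overlap. The star was detected, and well above background, on 1 of the 3 CIDB arrays, that of rat 2. In CO set 3 it was so on 0 of 3. The rise was 0.06 on the normalised scale (SE 0.0116, adjusted p = 3.99e-05) and 1.31 on the brightest probe, or 1.04 less the median (adjusted p = 8.7e-05), and the guide miR-29c rose by 0.23 (adjusted p = 0.0171). The third, miR-99a*, fell by 0.05 (SE 0.0116, adjusted p = 0.00073), from 11.5, 11.8 and 14.5 units in the controls to 7.4, 4.6 and 2.9. All treated rats lay below all controls, although 0 of these 6 arrays had the probe well above background. Its guide, of a family known to target mTOR, fell by 0.27 (adjusted p = 0.0193), and by the brightest probe differed by -0.22 (adjusted p = 0.213).

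The fourth call in CIDB, miR-322*, whose guide has the seed of miR-15b and miR-16, was the smallest. Its signals were 5.8, 10.5 and 8.3 units against -1.1, 0.6 and 0.1 in the controls, with no overlap. It too entered the test only through CIDB, by its detection in rat 2. It rose by 0.03 (adjusted p = 0.00603), and its guide by 0.15 (adjusted p = 0.00183). On the brightest probe miR-322* rose by 0.57, or 0.30 less the median. All controls and every group mean outside CIDB were under the floor there, so no p is given for that scale. Without CIDB rat 2, the array with the most star miRNAs detected, and with the same 162 miRNAs, limma gave adjusted p = 0.00565 for miR-21* in CIDB, 0.000623 for miR-29c* in CIDB and 0.0197 for miR-99a* in CIDB. For miR-21* and miR-322* this is no check, since both were detected on CIDB arrays alone and were among the miRNAs tested only through CIDB. With all 350 miRNAs tested whether detected or not, miR-21* in CIDB stood at 0.08 (adjusted p = 0.000147 in limma) and miR-322* in CIDB at 0.03 (adjusted p = 0.00553). When the 6 arrays of both groups were fitted alone, miR-29c* stayed called (adjusted p = 0.0453 in limma), and the others stood at 0.118, 0.193 and 0.121.

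Hepatocyte markers moved in CIDB too, where 2 of 3 were lower (miR-122 by -0.33 and miR-192 by -0.50) and 1 of 5 leukocyte markers tested was lower (miR-223, -0.15). The summed background-subtracted signal of the hepatocyte list, of which miR-122 was the most abundant, was 62924, 48030 and 43237 units under CIDB and 43442, 46308 and 49689 in CO set 3. The leukocyte list summed to 446, 476 and 518 units against 550, 439 and 594, and all 3 hepatocyte markers were detected on every one of these arrays. The part of cell make-up in these calls was not tested.

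**Figure D3:**
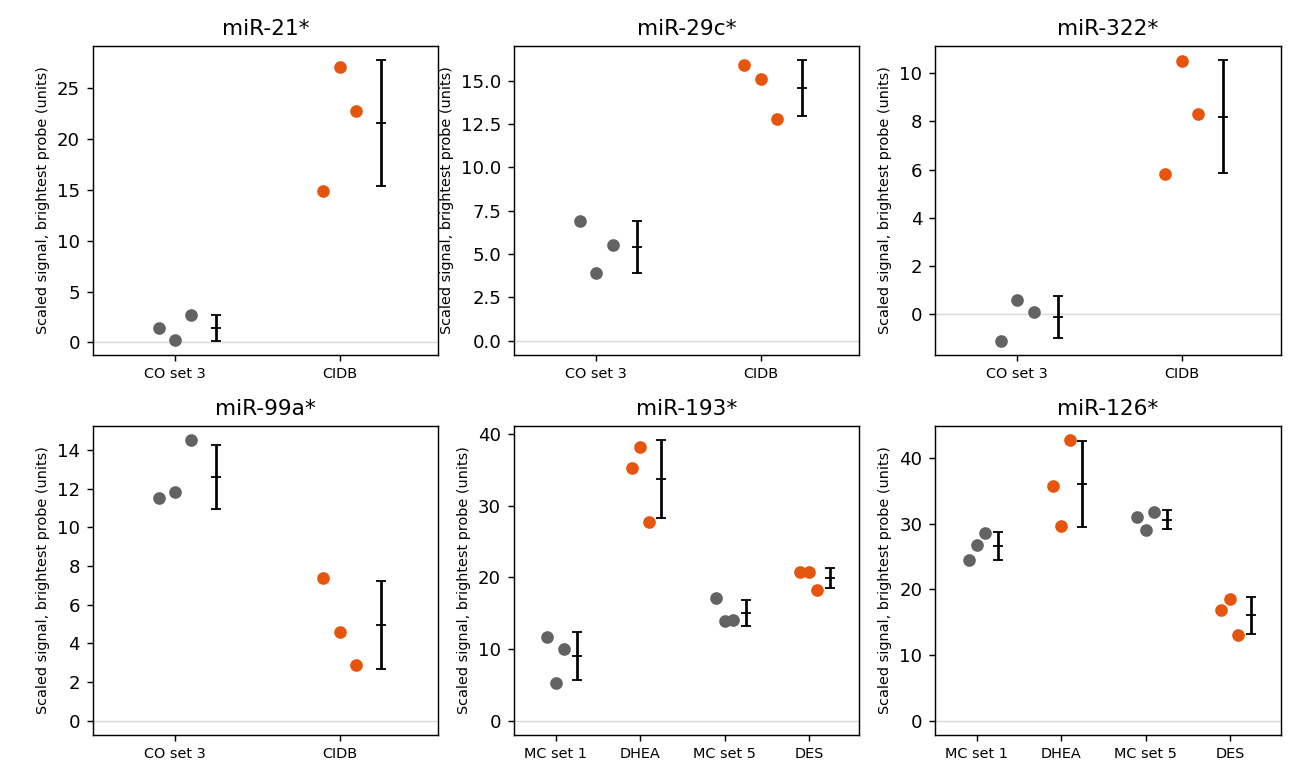
Background-subtracted, scaled signal of the brightest probe (units, linear axis starting near 0) for 6 star miRNAs, one point per rat, with mean and SD at the right. In CIDB miR-21* (14.9 to 27.1), miR-29c* and miR-322* lie above and miR-99a* below CO set 3, and on the arrays filed as DHEA miR-193* (27.7 to 38.2) lies above the other 3 groups shown.

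The largest change of a guide among all pairs belonged to miR-193, whose guide shares its seed with miR-193b. On the arrays filed as DHEA, a steroid known to activate the peroxisome proliferator response in rat liver, miR-193* gave 35.2, 38.2 and 27.7 units against 11.7, 5.3 and 10.0 in MC set 1. No rat of the groups overlapped. The normalised signal rose by 0.08 (SE 0.0127, adjusted p = 2.55e-06) and the brightest probe by 1.96, or 1.84 less the median (adjusted p = 1.57e-07). The guide stood at 10.18, 10.25 and 10.47 log2 against 9.08, 9.60 and 8.91, a rise of 1.10 (adjusted p = 1.2e-11). With the slide as a fixed block miR-193* in DHEA was at 0.07 and not called (adjusted p = 0.407 in limma). On these arrays 1 of 3 hepatocyte markers was lower (miR-192, -0.36, adjusted p = 0.000105) and 0 of 5 leukocyte markers were called. The hepatocyte list, led by miR-122, summed to 35971, 30261 and 40902 units against 41925, 38936 and 41563 in MC set 1, and the part of cell make-up was not tested.

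By the value table these 3 arrays belong to DES. Counted that way, against the arrays it gives to MC set 5, miR-193* rose by 0.09 (adjusted p = 7.55e-07), its brightest probe by 1.51 (adjusted p = 2.62e-05) and its guide by 1.40 (adjusted p = 3.77e-15). The rise of both strands on these 3 arrays thus stood under either assignment, and whether it belongs to DHEA or DES cannot be told apart here. On the arrays filed as DES, miR-193* read 20.7, 20.8 and 18.3 units, with the detection mark on 0 of 3, and the guide differed by -0.04 from MC set 5.

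Elsewhere the guide miR-193 fell in 5 compounds (AA, CIDB, ETH, MPy and TAA, by -0.36 to -0.54) and the star was called in none of them on the normalised scale. In ETH, a methionine antagonist, the brightest probe of miR-193* read 7.0, 3.8 and 7.8 units against 17.1, 13.9 and 14.0 in MC set 5. This pair was singled out after its values had been seen. The star was detected on 0 of the 3 ETH arrays and on 0 of the 3 of MC set 5. All ETH rats were below all controls, at -1.17 on that scale, or -1.30 less the median (adjusted p = 0.00185), while the normalised log2 difference was -0.03 (adjusted p = 0.0562), and the guide differed by -0.46 (adjusted p = 0.00151). In ETH, 3 of 5 leukocyte markers were higher and 2 of 3 hepatocyte markers lower. Of 4 markers of stellate and smooth muscle cells, 1 was higher (miR-143, 0.19, adjusted p = 0.012 in limma). The leukocyte list, led by miR-142-3p, summed to 961, 947 and 928 units against 638, 636 and 561 in MC set 5. The part of cell make-up was not tested.

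DES, a synthetic oestrogen, gave 2 calls in which the guide was not called. The endothelial miR-126* read 16.8, 18.5 and 13.0 units on the arrays filed as DES and 31.0, 29.0 and 31.8 in MC set 5. All treated rats lay below all controls. It was well above background on 0 of the 3 treated and 3 of the 3 control arrays, so that it was at least 1.01-fold lower on the normalised scale, where it fell by 0.09 (SE 0.0231, adjusted p = 0.00335 in limma). Its brightest probe differed by -0.94, or -0.84 less the median (adjusted p = 0.000394). The guide miR-126 stood at 9.46, 9.54 and 9.43 log2 against 9.29, 9.35 and 9.41, above all controls. Its difference of 0.13 was not called (adjusted p = 0.0923), while that of its brightest probe, 0.26, was (adjusted p = 0.0392). The difference of star and guide changes was -0.21 (95% interval -0.32 to -0.10) on the normalised scale and -1.20 (-1.60 to -0.80) on the brightest probe.

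In the same rats miR-378*, from an intron of the metabolic coactivator gene Ppargc1b, gave 51.5, 35.9 and 41.4 units against 25.6, 26.7 and 27.6. The groups were apart, with a rise of 0.12 (SE 0.0230, adjusted p = 0.00016), and of 0.67 on the brightest probe (adjusted p = 0.00421), or 0.77 less the median. The guide miR-378 differed by 0.12 (adjusted p = 0.159). Counted as DHEA, as the value table has them, these arrays gave the same values for both miRNAs, because the control arrays moved with them. The arrays filed as DES were read on the first scan day and those of MC set 5 on the second. With the scan day as a block, miR-126* in DES was at -0.06 (adjusted p = 0.311 in limma) and miR-378* in DES at 0.12 (adjusted p = 0.0487), and with the slide as a fixed block at -0.01 and 0.13, neither called (adjusted p = 0.997 and 0.563). Of the hepatocyte markers 1 of 3 was higher in DES (miR-192, 0.26, adjusted p = 0.00357). Of the leukocyte markers 2 of 5 were lower, with the list summing to 366, 438 and 328 units against 638, 636 and 561, and the part of cell make-up was not tested.

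MC set 1 was the control of 6 compounds and of 20 star calls among 108 comparisons (18.5%), near the 16.7% of all miRNA comparisons called against it. Of the 20, 16 were lower (background 8.54%) and 4 higher (8.13%). The call made most often was miR-30a*, lower in AA (-0.11), DHEA (-0.07), MPy (-0.14), TAA (-0.12) and Wy (-0.10), with adjusted p from 1.65e-05 in MPy to 0.028 in DHEA. The miR-30 family is known as abundant in epithelia. The MC set 1 rats read 7.75, 7.83 and 7.66 log2, and the first 2 values were the second highest and the highest of all 63 arrays. The MPy rats read 7.64, 7.61 and 7.58, all below the controls. The AA rats (7.64, 7.62 and 7.64) and, before rounding, the Wy rats (7.64, 7.62 and 7.66) also lay below all 3. The DHEA rats (7.67, 7.68 and 7.67) and the TAA rats (7.60, 7.66 and 7.61) overlapped with the lowest control.

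These 5 calls share the same 3 control rats and are not separate evidence. Without MC set 1 rat 5 the difference of miR-30a* in AA was -0.06 (adjusted p = 0.0736 in limma) and that of miR-30a* in DHEA -0.03 (adjusted p = 0.498), the latter being lost also without MC set 1 rat 4 or any DHEA rat (-0.06 to -0.07), and MPy, TAA and Wy stayed called at -0.09, -0.08 and -0.06. Under the assignment of the value table MPy alone of the 5 stayed called (-0.08, adjusted p = 0.00863), with AA at -0.06, DHEA at 0.02, TAA at -0.07 and Wy at -0.05. On the brightest probe miR-30a* was lower in MPy (-0.34, adjusted p = 0.0237) and was not called in AA (-0.22), DHEA (-0.18), TAA (-0.19) or Wy (-0.33). Less the median these were -0.75 in MPy, -0.40 in AA, -0.30 in DHEA, -0.43 in TAA and -0.43 in Wy. With the slide as a fixed block 0 of the 5 stayed called (-0.03 to -0.08), nor did any other of the 18 lower star calls. The guide miR-30a was called in none of the 5. In MPy it read 8.46, 8.49 and 8.42 against 8.60, 8.68 and 8.54, a difference of -0.15 (adjusted p = 0.0721).

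**Figure D4:**
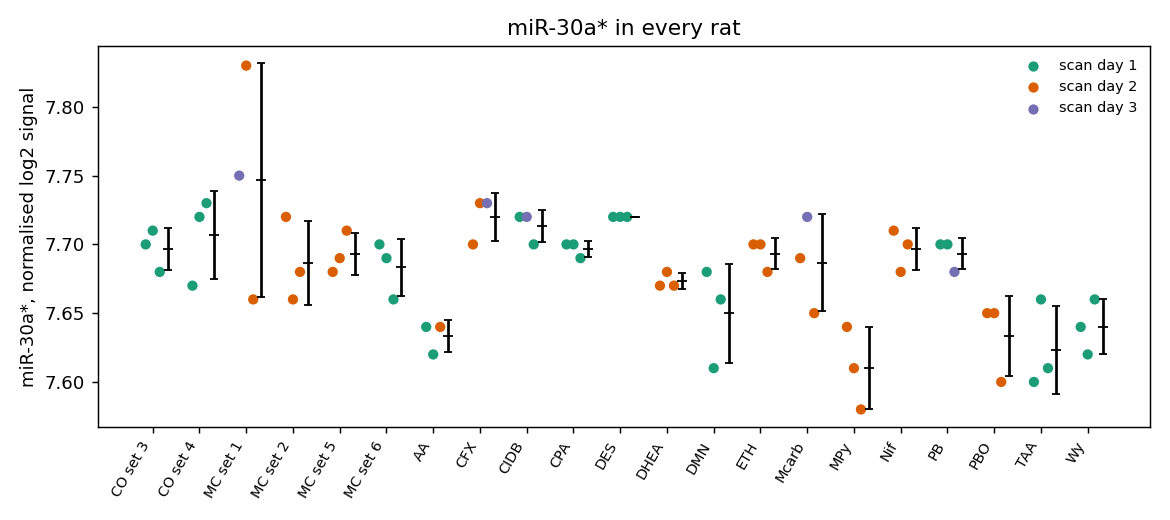
Normalised log2 signal of miR-30a* for every rat, coloured by scan day, with mean and SD at the right of each group, control sets first. MC set 1 holds the values 7.75 and 7.83, the highest of 63, beside 7.66, and the axis spans only a small range of log2.

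Other calls against MC set 1 included miR-30e*, the partner of a second miR-30 guide, lower in AA (-0.09), MPy (-0.10) and TAA (-0.08). For it MC set 1 rats 4 and 5 again held the second highest and the highest of the 63 values, at 7.71 and 7.77. Rat 6, at 7.62, ranked 41. In MPy, with 7.62, 7.60 and 7.60, all rats lay below the controls before rounding, and the guide miR-30e fell by 0.13 (adjusted p = 0.0111). Without MC set 1 rat 5, miR-30e* in AA was at -0.05 (adjusted p = 0.185 in limma), miR-30e* in TAA at -0.04 (0.145) and miR-30e* in MPy at -0.06 (0.037). With the scan day as a block the calls in AA and TAA were lost as well (-0.06 and -0.04). By the brightest probe miR-30e* was called in none of the 3 (-0.32 in AA, -0.21 in MPy, -0.08 in TAA, or -0.50, -0.62 and -0.32 less the median), nor under the assignment of the value table (-0.05, -0.06 and -0.04). Of the cell type markers in AA, MPy, TAA and Wy, those called were miR-194 of hepatocytes in MPy (-0.32) and miR-143 of smooth muscle and stellate cells in AA (0.18), TAA (-0.19) and Wy (-0.22). Their part was not tested.

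miR-140*, from a hairpin known for cartilage, where both strands are retained, was lower in DHEA (-0.09), TAA (-0.07) and Wy (-0.06). The arrays filed as DHEA read 7.64, 7.68 and 7.66 against 7.74, 7.71 and 7.79, with no overlap, and the TAA rats 7.65, 7.67 and 7.70, also below all controls. The DHEA difference was -0.29 on the brightest probe, or -0.41 less the median (adjusted p = 0.0239), and those of TAA and Wy were -0.03 and -0.08, or -0.26 and -0.19 less the median, and were not called. The guide miR-140 fell in AA (-0.11), MPy (-0.11), TAA (-0.09) and Wy (-0.09). TAA and Wy shared no scan day with MC set 1, and with the day as a block miR-140* in TAA was at -0.03 (adjusted p = 0.607 in limma) and miR-140* in Wy at -0.02 (0.779). Under the assignment of the value table miR-140* was called in none of DHEA (-0.05), TAA (-0.03) and Wy (-0.02). Without MC set 1 rat 6 TAA and Wy were at -0.05 and -0.04, and the call was also lost without TAA rat 1 (-0.06), Wy rat 2 (-0.05) or Wy rat 3 (-0.06).

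miR-99a* was lower in DHEA (-0.03) and MPy (-0.04) as well as CIDB, and its guide fell in 8 compounds, by -0.23 in TAA to -0.72 in DHEA. In MPy the star read 7.44, 7.43 and 7.42 against 7.48, 7.45 and 7.47, with the guide at -0.57 (adjusted p = 4.33e-06). The star was called lower on the brightest probe in CIDB (-1.07, or -1.34 less the median) and DHEA (-0.88, or -1) and not in MPy (-0.21, or -0.62, adjusted p = 0.556). The normalised call was lost for miR-99a* in DHEA without DHEA rat 1 or 2 or MC set 1 rat 4 or 6 (-0.03 each), and for miR-99a* in MPy without MPy rat 3 or MC set 1 rat 4 (-0.03 each). Under the assignment of the value table it was at 0.01 in DHEA and -0.01 in MPy, not called in either.

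Higher against MC set 1 were miR-193*, above, and miR-23a*, from the cluster of miR-23a, miR-27a and miR-24-2, in AA (0.07), TAA (0.06) and Wy (0.07). The TAA rats had 21.7, 10.2 and 10.4 units, all above 0.3, 3.1 and 4.0 in MC set 1, and the AA rats 7.1, 5.7 and 14.8. The probe was not well above background on any of these arrays. In Wy, an agonist of the peroxisome proliferator receptor PPAR alpha, its guide moved the other way, at -0.22 (adjusted p = 0.0122), the single call of 27 with the guide called in the opposite direction. The Wy rats had 4.1, 22 and 13.4 units. All 3 controls and 1 Wy rat lay under the floor, which set the size on that probe, at 0.65 in AA (adjusted p = 0.24), 1.29 in TAA (0.00536) and 1.12 in Wy (0.0208), or 0.47, 1.06 and 1.01 less the median. Under the assignment of the value table miR-23a* was called in none of the 3 compounds (0.01, 0.00 and 0.01), nor against all MC rats together (0.04, 0.03 and 0.04) for miR-23a* in AA, miR-23a* in TAA and miR-23a* in Wy. It was also lost without MC set 1 rat 4 or 5 or AA rat 3 in AA (0.05 to 0.07), without those controls or TAA rat 1 or 2 in TAA (0.05 to 0.06), and without Wy rat 2 or 3 in Wy (0.05 and 0.06). With the slide as a fixed block, only 3 of the 27 star calls, all higher, stayed called in the same direction.

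miR-7a*, whose guide is known from endocrine cells, was lower in DHEA (-0.03) and Wy (-0.04) and higher in DMN (0.02). The DHEA rats read 7.40, 7.41 and 7.39 and the Wy rats 7.40, 7.41 and 7.38, against 7.44, 7.42 and 7.44. The DMN rats read 7.43, 7.43 and 7.41 against 7.40 in all 3 controls. In each the groups did not overlap. None of these 3 calls was made on the brightest probe (-0.48, -0.36 and 0.15 in DHEA, Wy and DMN, or -0.60, -0.47 and 0.12 less the median), and miR-7a* in DMN lost its call without any 1 of 5 of its 6 rats, DMN rat 3 being the exception (0.02 to 0.03). Under the assignment of the value table miR-7a* was not called in DHEA (-0.01) or Wy (-0.02). In TAA, singled out after its values had been seen, that probe read 21.6, 20.4 and 15.9 units against 10.2, 8.1 and 7.6, a difference of 1.16, or 0.92 less the median (adjusted p = 0.00223), with the guide at 0.20 on the normalised scale (adjusted p = 7.47e-08) and 1.40 on the brightest probe. The normalised difference of the star was 0.00. It was detected on 2 of the 3 TAA arrays and well above background on 0. In DMN, an alkylating hepatotoxin, 4 of 5 leukocyte markers were higher and 3 of 4 markers of stellate and smooth muscle cells lower. Lower too were 1 of 3 hepatocyte markers (miR-122, -0.09, adjusted p = 0.0329) and the endothelial miR-126 (-0.18, adjusted p = 0.0253). The leukocyte sums were 1004, 1528 and 1292 units, against 550, 439 and 594 in CO set 3, and their part was not tested. The last call, miR-29c* in TAA (-0.04), rested on 7.44, 7.46 and 7.45 against 7.51, 7.48 and 7.48, and was not called on the brightest probe (-0.06, or -0.30 less the median, adjusted p = 0.883). The call was lost without MC set 1 rat 4 or TAA rat 1 (-0.03 each) and with the scan day as a block (-0.04, adjusted p = 0.0991 in limma), and under the assignment of the value table it was at -0.01.

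Set against the guides, the 27 star calls had a guide called in the same direction in 10, in the opposite direction in 1 and not called in 16. On the brightest probe the numbers were 10, 2 and 22 of 34. Seen from the guides, 53 of 270 were called, 17 of them higher (background 7.57% of all miRNA comparisons) and 36 lower (6.71%). The star was called in the same direction in 10, in the opposite in 1 and not in 42. Of these 42, 21 had a point estimate in the guide's direction. Guides that changed while the star was not called included miR-24, lower in DES (-0.23), DMN (-0.15) and Wy (-0.28), let-7d, higher in DES, DHEA, MPy and PBO (0.21 to 0.39), and miR-22 in DES (-0.41). A star that was not called has not been shown to be unchanged.

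Both strands of a pair were also compared within each array. The 95% interval of the star change less the guide change left out 0 in 72 of 270 comparisons, with the star above the guide in 42 and below it in 30, and in 48 of the 72 the guide had been called. The normalised scale compresses the dim strand: the median absolute log2 difference was 0.0133 for stars and 0.076 for guides on it, against 0.177 and 0.152 on the brightest probe. The normalised difference between strands therefore largely restates the change of the guide, and no order of the strands is read from it. On the brightest probe the interval left out 0 in 42. In 20 comparisons it did so on both scales with the same sign, and in 3 with opposite signs, namely miR-21*, miR-29c* and miR-99a* in CIDB. For miR-21* the star changed less than its guide on the normalised scale (-0.62, interval -0.78 to -0.46) and more on the brightest probe (0.55, interval 0.11 to 0.98), so no order of the 2 strands can be given. For miR-193* on the arrays filed as DHEA the difference was -1.02 (-1.23 to -0.81) and 0.48 (-0.19 to 1.16).

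**Figure D5:**
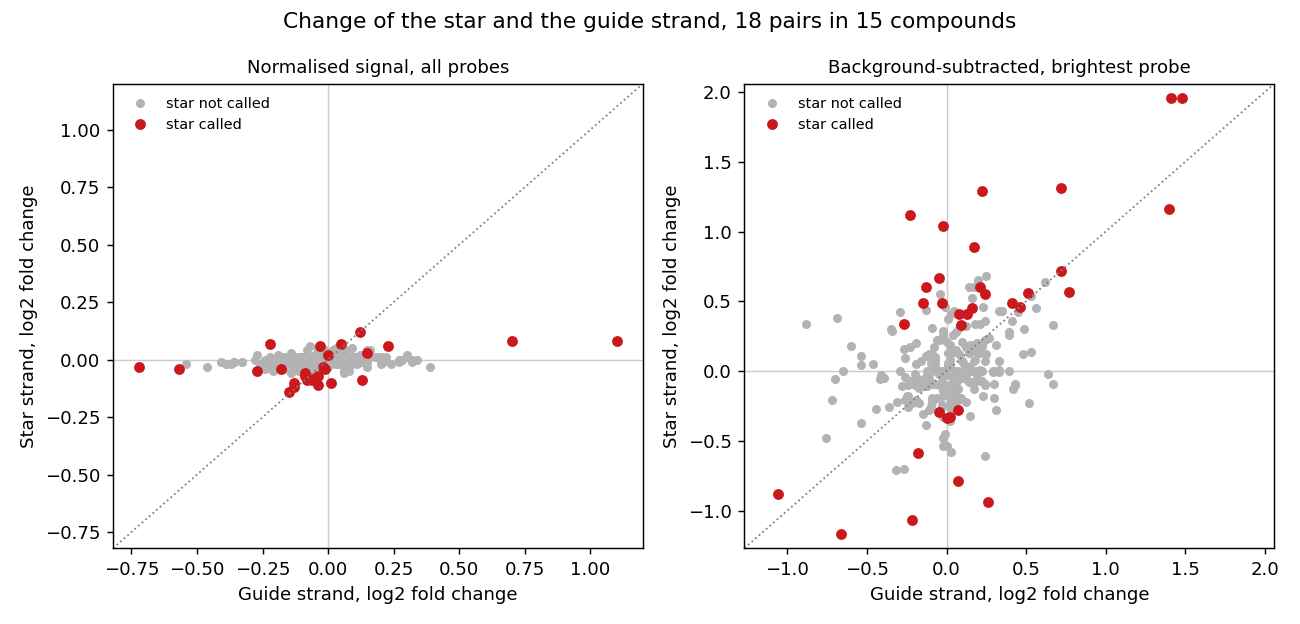
Log2 difference of the star strand against that of its guide for 18 pairs in 15 compounds, on the normalised scale (left) and on the brightest probe after background subtraction (right). Called stars are red and the dotted line marks equal change. On the left the star values stay between -0.14 and 0.12, while on the right miR-21* in CIDB and miR-193* in DHEA, both at 1.96, lie at the upper right with their guides at 1.41 and 1.48.

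Between control sets of the same vehicle, which differ by no compound, star miRNAs were called in 1 of 7 comparisons. MC set 1 and MC set 6 differed in miR-140* and miR-30e*, against a background of 20.4% of all miRNAs, and 0 were called with the scan day as a block. In the other 6 comparisons limma called 0 star miRNAs, with 0 to 5 at an unadjusted p under 0.05. The background was 6.79% between MC sets 2 and 6, 9.26% between MC sets 5 and 6, and 0% in the other 4.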

How the data were processed

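Scanner output of 63 single-colour Agilent miRNA arrays, 1 rat each, was used. Per the file headers, intensity values were extracted with Feature Extraction 10.7.3.1, and the detection marks are deposited with them. The authors' deposited table of log2 values holds 135 miRNAs, made with RMA per the submitters' processing notes, and served as an alternative. Mean spot intensity, without background correction as in the authors' methods, was stripped of outlier spots (2.87%), quantile normalised, averaged per probe, taken to log2 and summarised by median polish. limma 3.58.1 (R 4.3.3) was fitted with 21 group coefficients and p-values adjusted over 162 miRNAs. On the second scale, processed intensity was scaled to each array's 75th percentile over probes of miRNAs detected on all arrays, with a floor of 5.38 units, the 95th percentile of probes of miRNAs never detected. That scale, a higher floor of 29.4, which came first and flattened dim miRNAs, and fits without 3 arrays were chosen after seeing the data.

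Values per rat were given for up to 3 called star miRNAs per compound with groups that do not overlap, and for those called one way in at least 4 compounds; others were added after being seen. The members and lists were chosen with earlier results of these data known. The labels name separate rats, and their number limits the precision. The fit was tested on simulated data, from which no value or conclusion is given here.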

Additional observations from a re-analysis of the deposited data

How the results depend on the processing

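The number of star calls (27, 9 higher and 18 lower) depended on the batch term, the samples fitted and the signal. It was 3 (3 and 0) with the slide as a fixed block, 5 (3 and 2) when the groups compared were fitted alone, 12 (6 lower) under the assignment of the value table, of which 6 were among the 27, 9 (3 and 6) in the authors' value table, which holds 10 of the 18, and 17 (2 higher) where detection on every array of a group was required, which left 8 of the 18 to test. In these settings, in that order, the star share went from 10% to 1.11%, 1.85%, 4.44%, 6% and 14.2%. Over all miRNAs the share went from 14.3% to 3.37%, 6.87%, 11.5%, 14% and 17.6%. The processed signal gave 24 higher and 6 lower, its higher floor 16 calls (5 lower), the brightest probe 24 and 10, and the brightest probe under the other assignment 9 lower. Without the 3 arrays with the most star miRNAs detected, 5 were higher. The share over all miRNAs was 20.4% on the processed signal, 15% with its higher floor and 21.8% on the brightest probe. Under the other assignment that probe gave 15%, and without the 3 arrays the normalised scale gave 12.8%. Guide calls (53) were 13 with the slide as a fixed block, 32 with it as a random block and 35 with the groups compared alone. Star minus guide intervals leaving out 0 (72) were 29 in the value table, 32 under strict detection, 32 with the slide as a fixed block, 42 on the brightest probe and 36 on it under the other assignment. Star calls between vehicle sets (2) were 0 with the scan day as a block and 5 on the processed signal. The cause of these changes was not tested, beyond the fewer miRNAs tested in the value table and under strict detection.

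Leaving out 1 rat at a time gave 21 to 30 star calls (7 to 10 higher, 14 to 20 lower), 45 to 59 guide calls and 67 to 81 intervals, with the lowest number of star calls without MC set 1 replicate 4 and the highest without MC set 1 replicate 6. Directions turned in the value table for miR-126* in DES (0.30), miR-30a* in DHEA (0.05), miR-99a* in DHEA (0.04) and miR-99a* in MPy (0.02), and under its assignment for miR-126* in DES (0.04), miR-30a* in DHEA (0.02) and miR-99a* in DHEA (0.01). On the brightest probe under that assignment they turned for miR-23a* in AA (-0.06), miR-126* in DES (0.28), miR-30a* in DHEA (0.04), miR-99a* in MPy (0.04), miR-140* in TAA (0.01) and miR-29c* in TAA (0.19), and with the slide as a fixed block for miR-140* in Wy (0.01). Replicate numbers shared by PB and MC set 6 and by CPA and CO set 4 did not pair the samples (correlation of deviations -0.258 to 0.045), and the replicate block left 27 star calls. Dim probes limit the rest, since 0 star miRNAs were well above background on all 63 arrays.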
